A study of Danio rerio with 30 samples.

Results

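The genes described here are 5 transcription factor genes of the adult zebrafish intestine, the caudal genes cdx4 and cdx1a and the GATA factor genes gata4, gata5 and gata6. They were chosen by name, as all spots whose annotated symbol is 1 of the 5 or an older synonym. No measured value entered this rule, but the genes were named with earlier results of these data known. Each has exactly 1 spot among the 23232 spots of the array, which carry 9264 different gene symbols. Caudal proteins are homeodomain factors that set the posterior body and, in mammals, the identity of the intestinal epithelium. GATA4, GATA5 and GATA6 are zinc finger factors of the heart and the endoderm. In the mouse intestine Gata6 is active along the whole length, while Gata4 marks the proximal small intestine and is absent from the ileum. In zebrafish, gata5 is required for endoderm and heart formation, and cdx4 acts with hox genes in posterior patterning.

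The intestine of wild-type male fish of about 1 year of age was cut into 7 segments, S1-S7, numbered from the mouth end. Every replicate is a pool of 1 segment from 10 fish, and the segments of a replicate number may come from the same fish, which the labels do not say. This RNA was labelled with Cy5 and mixed on the array with Cy3-labelled RNA of whole wild-type fish, 9 parts male to 1 part female. The rostral intestinal bulb gave S1 and S2, the mid-intestine gave S3 and S4, and S5 to S7 are caudal intestine. There are 5 arrays each of S1, S2, S3 and S4, 4 of S5, 3 of S6 and 3 of S7, 30 in all. The measurement is the log2 ratio of Cy5 to Cy3, the level in a segment relative to the whole fish, where 0 means equal and 1 means 2-fold higher. A segment is a mixture of tissues, so that fewer cells of a type and less RNA per cell cannot be told apart. The segment was in Cy5 on all arrays, so any dye bias of a probe is part of its ratio.

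The 24 arrays of S1-S5 are treated as a stretch of their own, because the 6 S6 and S7 arrays differ from them in both dyes. Across spots, the whole-fish (Cy3) signals of 2 S1-S5 arrays had a mean r of 0.929, and those of an S1-S5 array and an S6 or S7 array had a mean r of 0.225. Spots were read over 80 pixels in S6 and S7 and over 120 to 460 pixels in S1-S5. Within S1-S5, 7 arrays had spots of 120 pixels, namely 2 of S1, 4 of S2 and 1 of S3, and 17 had larger spots. A spot counted as above background when its median exceeded the local background median by over 2 SD, which held in Cy5 for 37.8% to 69.6% of spots in S1-S5 and for 14.9% to 89.9% in S6 and S7. Markers of enterocytes, the absorptive cells of the epithelium, lay on average above the whole fish on all S1-S5 arrays. The mean log2 ratio of the 9 genes was 1.96 to 2.72 on the S1-S4 arrays and 1.02 to 1.74 on those of S5. On the S6 and S7 arrays this mean lay between -0.66 and 0.04.

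Of the 5 genes, cdx4 rose and gata4 fell from S1 to S5, and no slope was called for gata5 and gata6, which lay above the whole fish throughout. The fall of gata4 passed the test in 9 of 11 other processings, and a small rise of cdx1a in only 4 of them. Along the stretch a straight line over the segment number was fitted in limma to 19479 probes above background, and a probe was called at a Benjamini-Hochberg adjusted p under 0.05. A rising slope was called for 2.37% of all tested probes and a falling slope for 2.35%. Among the 5 genes, 2 were called as rising and 1 as falling. All 5 passed the filter on dim probes, but cdx4 did so only through S5, the segment where it was highest. Without the filter its slope was called as well.

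**Figure D1:**
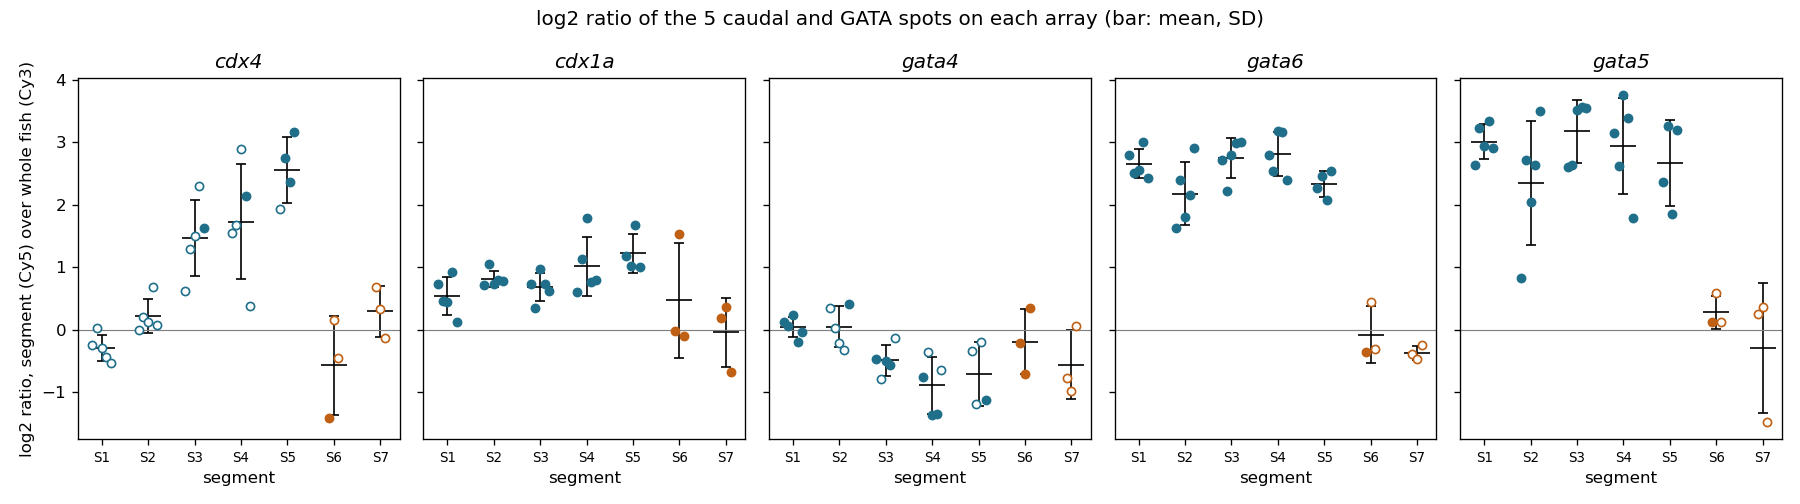
The vertical axis gives the log2 ratio of segment (Cy5) to whole fish (Cy3) and the horizontal axis the segment, with a point per array, the mean and the SD; filled points are above background in Cy5, and S6 and S7 are in orange. The cdx4 points climb from near 0 in S1 and S2 to between 1.92 and 3.16 in S5, all gata4 points of S3, S4 and S5 are below 0, and those of gata6 and gata5 stay high up to S5.

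The log2 ratio of cdx4 was near 0 in the intestinal bulb and well above 0 in the caudal segment S5. Its signals were low in both dyes. Cy3 was above background on only 5 of the 24 arrays of S1-S5 and on 2 of the 10 of S1 and S2, where Cy5 was so on none, and a ratio near 0 there sets signals at background against each other. In the 5 arrays of S1 its log2 ratios were -0.24, 0.03, -0.30, -0.43 and -0.53. In S2 they were -0.00, 0.20, 0.13, 0.68 and 0.08. Only S2 replicate 4 of these 10 exceeded 0.5. In S3 the values were 0.62, 1.28, 1.504, 2.29 and 1.62, and in S4 1.55, 1.68, 2.90, 2.14 and 0.38. The 4 arrays of S5 gave 1.92, 2.75, 2.37 and 3.16. Of the 10 arrays of S3 and S4, 8 lay above all 10 of S1 and S2, and the 2 others were S3 replicate 1 and S4 replicate 5. All 4 S5 arrays lay above all arrays of S1 and S2, 3 of them above all of S3, and 1 above all of S4.

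The mean of cdx4 went from -0.29 ± 0.21 in S1 (SD, n = 5) through 0.22 ± 0.27 in S2, 1.47 ± 0.60 in S3 and 1.73 ± 0.92 in S4 to 2.55 ± 0.53 in S5 (n = 4). The order of the means therefore followed the order of the segments. The fitted slope was 0.72 per segment (standard error 0.0785, adjusted p = 1.23e-06 from limma). It rests at its low end on S1 and S2, where no array was above Cy5 background and the level is not known. By comparison of regions, S3 and S4 were called as higher than S1 and S2 (adjusted p = 0.00033), as were 1.08% of probes. S5 exceeded the mean of S1 to S4 by 1.77 (adjusted p = 0.000353), where 2.71% were called as higher. Since cdx4 passed the filter only through S5, neither this test nor that of the slope was independent of the filter. The S5 difference was called in all 11 other processings, among them without the filter. The region call, but not the slope, ended when only the 17 arrays with larger spots were used (adjusted p = 0.0767). From the authors' log2 values the slope of cdx4 was 1.44 and the S5 difference 2.74, both called. These larger sizes rest on S1 values between -5.80 and -1.10. They come from net Cy5 signals of -97 to 97, none above background, so that they measure no size.

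The rise of cdx4 lay in the segment dye. Cy5 was above background on none of the 10 arrays of S1 and S2, on 1 of 5 each of S3 and S4, and on 3 of 4 of S5. These counts depend on the background spread of each array and do not order the segments by level. S4 replicate 3 had the highest net Cy5 signal of cdx4, 2409, and was not above background, while S3 replicate 5 was, at 466. Where a segment had no array above background, its fold was taken from the Cy5 signal after Aquantile normalization between arrays. Dim arrays were set no lower than a floor, the lowest signal of any spot above background on the array. With this floor S5 was 5.74-fold above S1 and 3.61-fold above S2. The floor is not the detection limit at the cdx4 spot. In S2 it hardly moved the mean log2 Cy5 signal (8.82, and 8.87 with the floor). These folds are therefore estimates and not lower bounds. The mean of S3 and S4 came out 2.45-fold above that of S1 and S2. Since S3 and S4 were themselves above background on only 2 of 10 arrays, this value sets no minimum. The folds are also open to dye bias, since no dyes were swapped. The log2 Cy5 signal of cdx4 rose by 0.73 per segment (adjusted p = 2.07e-06), and its Cy3 signal, which holds no segment RNA, had a slope of 0.01 (adjusted p = 0.971).

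**Figure D2:**
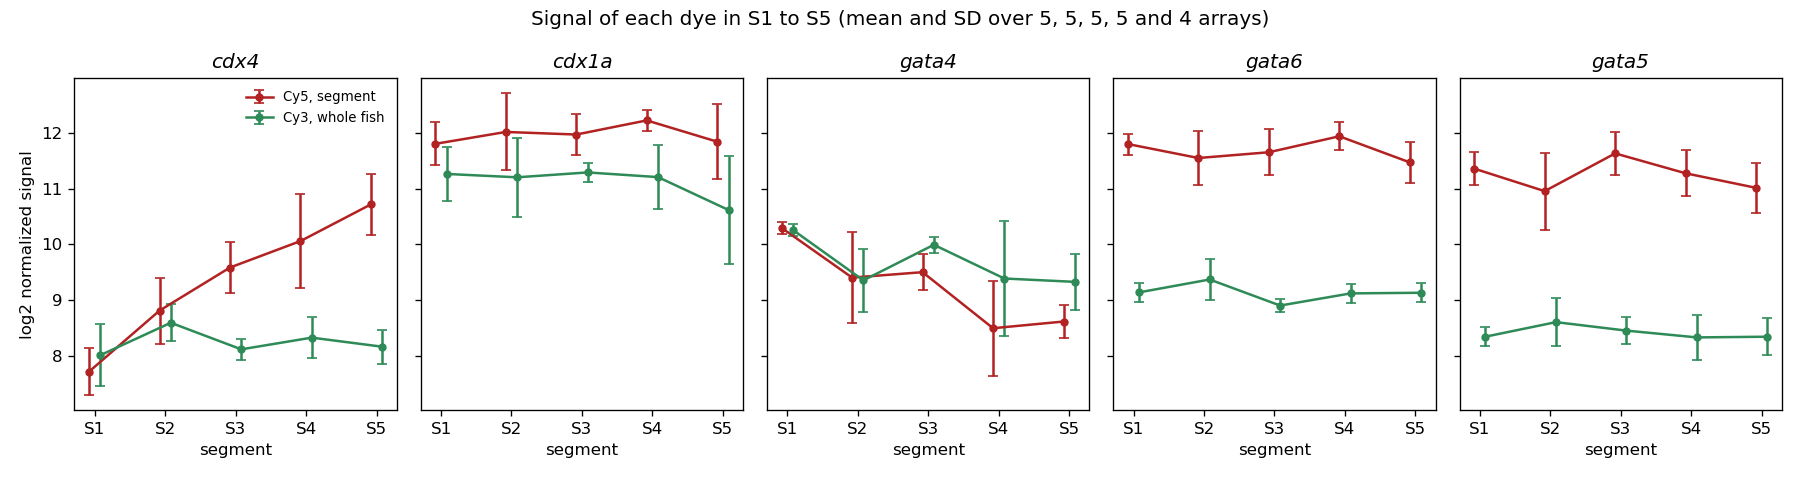
The vertical axis gives the log2 signal of each dye after loess and Aquantile normalization, with the mean and SD over the arrays of each segment from S1 to S5 on the horizontal axis; red is Cy5, the segment, and green is Cy3, the whole fish. For cdx4 the red line rises from 7.72 in S1 to 10.72 in S5 and the green line stays between 8.02 and 8.60, while for gata4 both lines are lower in S5 than in S1.

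The second caudal gene, cdx1a, was above the whole fish on every S1-S5 array and above background in both dyes on all 24. In S1 the log2 ratios were 0.73, 0.46, 0.45, 0.93 and 0.13, and in S2 they were 0.72, 1.05, 0.72, 0.80 and 0.78. S3 gave 0.73, 0.35, 0.97, 0.73 and 0.62, and S4 gave 0.60, 1.13, 1.78, 0.76 and 0.80. The 4 arrays of S5 gave 1.19, 1.03, 1.68 and 1.00, all above all arrays of S1 but none above S4 replicate 3. From S1 to S5 the segment means were 0.54 ± 0.30, 0.81 ± 0.14, 0.68 ± 0.22, 1.02 ± 0.47 and 1.22 ± 0.31 (SD). The slope was 0.15 per segment (95% interval 0.06 to 0.25, adjusted p = 0.042), or 1.54-fold over the stretch. This call ended in 7 of 11 other processings, among them with spot size as a block (0.16, adjusted p = 0.116) and with Cy5 alone (0.04, adjusted p = 0.86), and in 10 of the 24 fits that left out an array. The Cy3 signal of cdx1a, which holds no segment RNA, had a slope of -0.12 that was not called (adjusted p = 0.633). Neither the difference of S5 from S1 to S4 (0.46, adjusted p = 0.113; 0.51 and 0.0297 without S4 replicate 3) nor that of S3 and S4 from S1 and S2 (0.17, adjusted p = 0.664) was called.

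The slopes of the caudal genes cdx4 and cdx1a differed. On the same arrays cdx4 rose by 0.57 per segment more than cdx1a (permutation test of the difference over the 24 arrays, two-sided, p = 1e-05, the smallest that 100000 resamples can give, 4e-05 after adjustment over 4 pairs of members). The difference was called in each of the settings tried and without each array, between 0.53 and 0.60 in the latter. The pairs were chosen after the values were seen.

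Among the GATA genes, gata4 was the one that fell. In S1 its log2 ratios were 0.12, 0.06, 0.23, -0.19 and -0.03, about the whole-fish level. In S2 they were 0.35, 0.03, -0.22, -0.32 and 0.41. Each dye was above background on only 1 of the 5 arrays of S2, so that most of these ratios compare signals not above background. In S3 they were -0.47, -0.79, -0.50, -0.56 and -0.12, and in S4 -0.75, -0.35, -1.37, -1.34 and -0.64. S5 gave -0.35, -1.18, -0.19 and -1.12. Of the 10 arrays of S3 and S4, 9 lay below all 10 of S1 and S2, the exception being S3 replicate 5. All 4 arrays of S5 were below all 5 of S1, but S5 replicate 3 (-0.194) hardly differed from S1 replicate 4 (-0.192). On S5 replicate 3 gata4 was not above Cy5 background. From S1 to S5 the means of gata4 were 0.04 ± 0.16, 0.05 ± 0.33, -0.49 ± 0.24, -0.89 ± 0.45 and -0.71 ± 0.51 (SD). S1 and S2 differed by less than their spread, and so did S4 and S5.

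The slope of gata4 was -0.25 per segment (standard error 0.0531, adjusted p = 0.00429), a fall of 2.01-fold over the stretch by the fitted line. The means of S1 and S5 differed by 1.68-fold. The mean of S3 and S4 minus that of S1 and S2 was -0.73 (standard error 0.152, adjusted p = 0.00905), where 0.981% of probes were called as lower. The difference of S5 from S1 to S4 was not called (-0.39, 95% interval -0.77 to -0.00, adjusted p = 0.262). Cy5 of gata4 was above background on all 5 arrays of S1, 1 of 5 of S2, 3 of 5 each of S3 and S4, and 1 of 4 of S5. The Cy5 signal fell by 0.44 per segment (adjusted p = 0.00349) and the Cy3 signal had a slope of -0.18 that was not called (adjusted p = 0.512). The slope kept its direction in all 11 other processings and its call in 9, and it was not called with the authors' values (-0.40, adjusted p = 0.167) or with each array centred on its median (-0.23, adjusted p = 0.0756). The region call ended with Cy5 alone (adjusted p = 0.133), with the authors' values (adjusted p = 0.127) and with the larger spots only (adjusted p = 0.105).

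Gata6 lay several fold above the whole fish along the whole stretch. From the lowest to the highest array its log2 ratios ranged from 2.43 to 3.00 in S1, 1.62 to 2.90 in S2, 2.22 to 3.01 in S3, 2.40 to 3.18 in S4 and 2.08 to 2.54 in S5. All 24 arrays were above background in both dyes, and their mean of 2.55 ± 0.40 (SD) is a 5.87-fold higher level than in whole fish. The segment means from S1 to S5 were 2.66, 2.18, 2.75, 2.81 and 2.34, and the arrays of every pair of neighbouring segments overlapped. The slope was 0.01 per segment (95% interval -0.11 to 0.13, adjusted p = 0.958), and the mean of S3 and S4 exceeded that of S1 and S2 by 0.36 (95% interval 0.06 to 0.67), which was not called (adjusted p = 0.278). The F test over S1-S5, which did not call gata6 on all arrays, called it on the 17 arrays with larger spots (adjusted p = 0.0419) and without S2 replicate 5 (adjusted p = 0.0311).

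Gata5 was likewise high along S1-S5, with more spread between arrays. Its log2 ratios were 2.63 to 3.33 in S1, 0.83 to 3.50 in S2, 2.61 to 3.56 in S3, 1.79 to 3.76 in S4 and 1.85 to 3.25 in S5. Cy5 exceeded the background on all 24 arrays but Cy3 on only 2, so that the level relative to the whole fish rests on a reference signal near background and its size depends on the background offset. Its segment means from S1 to S5 were 3.01 ± 0.28, 2.35 ± 0.99, 3.17 ± 0.51, 2.94 ± 0.77 and 2.67 ± 0.68 (SD). The slope was -0.00 per segment (95% interval -0.21 to 0.20, adjusted p = 0.994), an interval wide enough to hold a slope of the size fitted for cdx1a.

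On the same arrays, gata4 fell by 0.26 per segment relative to gata6 (permutation test, two-sided, adjusted p = 0.0292 over the 4 pairs). That call ended in 5 of 7 other settings and without S5 replicate 2 (0.0529) or S5 replicate 5 (0.0544). The difference between gata4 and gata5, at -0.25, was not called (adjusted p = 0.122; 0.03 without S5 replicate 3), and that between gata6 and gata5 was 0.01 (adjusted p = 0.85).

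**Figure D3:**
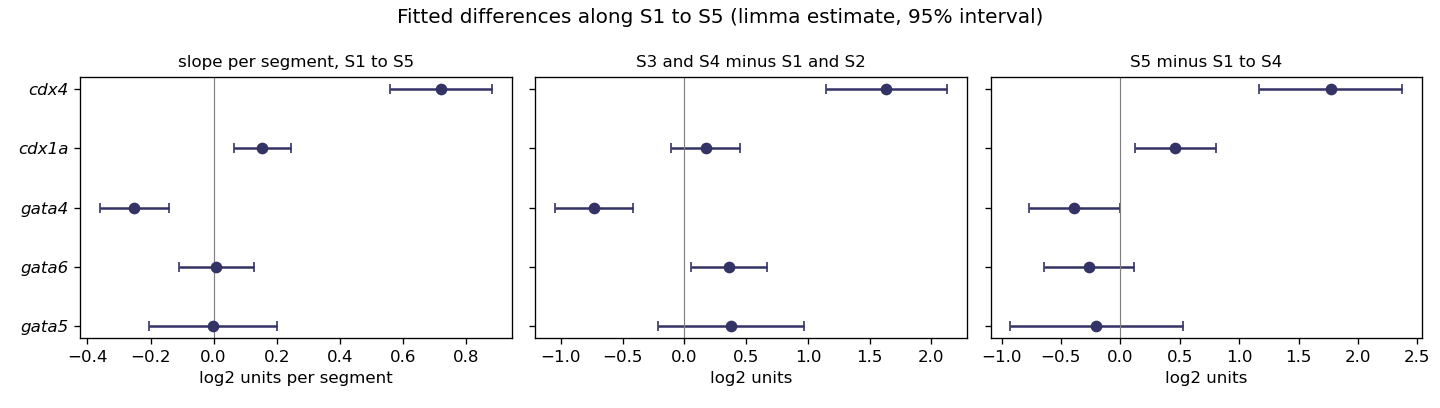
The horizontal axes give limma estimates in log2 units with their 95% intervals for the 5 genes, as the slope per segment, as S3 and S4 minus S1 and S2, and as S5 minus S1 to S4. The interval of cdx4 lies to the right of 0 in all 3 panels, that of gata4 to the left with its end at -0.00 in the third, and that of gata5 spans 0 in all; the intervals are not adjusted for the number of probes.

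In limma's F test of any difference among S1 to S5, cdx4 (adjusted p = 3.59e-05) and gata4 (adjusted p = 0.0121) were called, as were 6.17% of probes. Cdx1a (0.159), gata6 (0.191) and gata5 (0.607) were not called. For cdx4 the F test was not independent of the filter either, and it includes S1 and S2, where no array was above Cy5 background. Without the filter cdx4 was called in it as well. No single step between neighbouring segments was called for any of the 5 genes in the main processing. With the authors' values cdx4 was called from S1 to S2 (3.01, adjusted p = 0.0185), where no array is above Cy5 background. With median centring gata4 was called from S2 to S3 (-0.96, adjusted p = 0.0408). From S2 to S3, cdx4 was called without S4 replicate 5 (0.0376) and gata6 without S2 replicate 5 (0.0401). The lowest adjusted p of the main processing was that of cdx4 from S2, where no array is above Cy5 background, to S3 (0.106). This step passed with median centring (0.0461) and without background correction (0.0195). Over the 20 tests of 5 genes and 4 steps, 6 had an unadjusted p under 0.05. The share of all probes at that threshold was not counted, so this number shows no excess. By adjusted p, 0.816% of all probes were called from S1 to S2, 0.354% from S2 to S3, 0.0257% from S3 to S4 and 1.45% from S4 to S5.

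Gata5 and gata6 went up and down together from array to array. Over the 24 arrays their log2 ratios correlated at r = 0.85 (Spearman's rho 0.80, permutation p of 5e-05 and 0.0002 after adjustment over 10 pairs of members, r = 0.77 without the 2 farthest arrays), and after subtraction of the segment means at 0.85. S2 replicate 1 was the lowest array of both genes and S2 replicate 5 the highest of S2 in both. The spread of the log2 ratios of all tested probes on an array moved with them. Its SD ran from 0.81 on S2 replicate 1 to 1.35 on S2 replicate 5 and correlated with gata5 at r = 0.81 (rho 0.72, adjusted p = 5e-05 and 0.0006 over 5 members, r = 0.75 without the 2 farthest arrays) and with gata6 at r = 0.65 (rho 0.57, adjusted p = 0.00142 and 0.011, r = 0.53). Its part in the correlation of the GATA genes was not tested. Cdx4 and gata4 went in opposite directions (r = -0.78, rho -0.76, adjusted permutation p = 5e-05 and 0.00035). The permutations moved arrays across segments, so these p-values also reflect the opposite slopes of the 2 genes. Within segments r was -0.52, which was not tested. The array SD correlated with cdx4 at r = 0.38 (rho 0.41, adjusted p = 0.102 and 0.0741; 0.49 without the 2 farthest arrays and 0.55 within segments). With gata4 its r was -0.36 (rho -0.33, adjusted p = 0.102 and 0.153; -0.53 without the 2 farthest arrays and -0.38 within segments), and its part in the opposite course of cdx4 and gata4 was not tested either.

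Other genes had profiles close to these over the same 24 arrays, given as a description of the 5 named genes with the highest Pearson's r for each member. Those closest to cdx4 were stom (r = 0.90), csad (0.87), the homeobox gene hoxb3a (0.86), fam43a (0.86) and the cell adhesion gene alcama (0.83), with slopes of 0.29 to 0.62 per segment. For cdx1a they were id2a (0.81), an inhibitor of helix-loop-helix factors, the nuclease gene dnase1 (0.79), gpt2 (0.74), zfp36l2 (0.73) and the pancreatic elastase gene ela2 (0.72). For gata4 they were the homeobox gene dlx3b (0.86), tcnba (0.83), dhrs13a.1 (0.79), the fatty acid transporter gene slc27a1a (0.76) and katnal1 (0.75). The closest to gata6 were reep3a (0.88), the fibroblast growth factor receptor gene fgfr4 (0.87), araf (0.86), gata5 (0.85) and me2 (0.84), and to gata5 they were poglut2 (0.92), tor1l3 (0.89), ablim1b (0.88), c1galt1lb (0.87) and mfsd14a1 (0.86).

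Relatives of these families on the array were not called in the slope, as was the case for most of the 8761 named genes tested, of which 218 rose, 288 fell and 668 were called in the F test. Of the 8 tested GATA relatives and cofactors, gata1a, gata2a, gata2b and gata3, which act mainly in blood, neurons and lymphoid cells, the cofactor zfpm2a and the zinc finger genes gatad1, gatad2ab and trps1, none was called in the slope, region, S5 or F tests of S1-S5. Their median slope was -0.01, and that of all named genes was -0.02. Gata3 was above Cy5 background on 2 of the 24 arrays and gata2a on 6. Of the caudal relatives, pdx1, the ParaHox gene of duodenum and pancreas, had a mean log2 ratio of 1.29 ± 0.19 in S1 (SD, n = 5), and of 0.32, 0.63, 0.65 and 0.47 from S2 to S5. Pdx1 was called in the F test (adjusted p = 0.000797) and in its drop from S1 to S2 (-0.97, adjusted p = 0.00222), and its slope was not (-0.13, adjusted p = 0.144). Gsx1, a ParaHox gene of the brain, was above Cy5 background on none of the 24 arrays. Pdx1 and gsx1 are the only 2 of the 5 listed caudal relatives with a spot by symbol. No spot carries the symbol of the caudal gene cdx1b, so nothing is known of it here.

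Of 19 tested factors that act with the caudal and GATA proteins in endoderm and gut, 1 rose and 1 fell along the stretch, against 218 and 288 of the 8761 named genes, and 17 were not called. Hnf4b, a nuclear receptor gene, fell from 1.91 in S1 to 1.01 in S5 (slope -0.22, adjusted p = 0.00937). Bmp4, a signalling ligand, rose by 0.20 per segment (adjusted p = 0.0282) but was above Cy5 background on none of the 24 arrays. Creb3l3a, a regulator of lipid metabolism, was lower in S5 than in S1 to S4 (-0.74, adjusted p = 0.0116), as was hnf4b (-0.66, adjusted p = 0.014). Nr1h4, the bile acid receptor, rose from S4 to S5 by 1.12 (adjusted p = 0.0128), from its lowest mean. Its means from S1 to S5 were 1.70, 1.30, 1.36, 0.67 and 1.79. Neither its slope (-0.07, adjusted p = 0.673) nor S5 against S1 to S4 was called. The forkhead genes foxa1, foxa2 and foxa3 and hnf4a, named outside the rule after their values were seen, were not called in any of these tests.

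Of the 19 tested intestinal genes that are known in mammals as targets of CDX or GATA factors, 4 were higher and 5 lower in S5 than in S1 to S4, and 10 were not called. For all named genes the numbers were 268 and 321 of 8761. The genes higher in S5 were fabp6, an ileal bile acid binding protein (6.68, adjusted p = 4.81e-06), slc10a2, the ileal bile acid carrier (5.12, adjusted p = 9.96e-14), the endocytic adaptor gene dab2 (3.44, adjusted p = 1.01e-05) and slc51a (1.55). Those lower were the apolipoprotein gene apoa4a (-2.68, adjusted p = 3.13e-07), slc15a1b, fabp1b.1, mttp and apobb.1. Cy5 was saturated on 7 of the 24 arrays for fabp6, 9 for apoa4a, 14 for apobb.1 and 19 for fabp1b.1, and saturated spots entered at their value. Slc51a and the lower genes other than apoa4a were named after their values were seen. In the region test of S3 and S4 against S1 and S2, in which cdx4 and gata4 were called, none of the 19 was called, and 2 rose and 3 fell in the slope. Saturation limits what these tests can show, since Cy5 was saturated also on 23 of the 24 arrays for apoa1a, 22 for fabp2, 20 for apoa4b.1 and 8 for cdh17, which were not called in any of them.

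**Figure D4:**
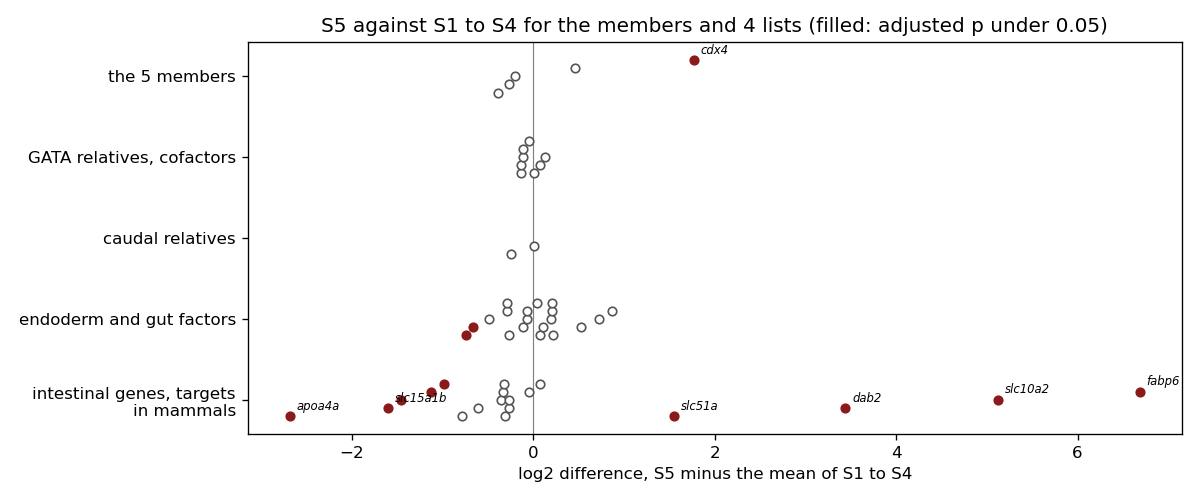
The horizontal axis gives the log2 difference of S5 from the mean of S1 to S4, with a point per gene and a row for the 5 members and for each of 4 lists; filled points have an adjusted p under 0.05. Of the members only cdx4 is filled, at 1.77, and the intestinal genes spread from -2.68 (apoa4a) to 6.68 (fabp6).

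Markers of other tissues moved along the same stretch. All 13 tested genes of the exocrine pancreas rose from S1 to S5, with a median slope of 0.42, and the mean log2 ratio of the 14 on the array was -0.13 to 0.27 on the S1 arrays and 1.19 to 1.84 on the S5 arrays. Their summed Cy5 signal was 389333 to 430106 in S1 and 403301 to 802904 in S5, where 1 of the 14 (cel.1) was above background on no array. Of 10 liver genes, 6 were lower in S3 and S4 than in S1 and S2, and none was called in the slope. Their mean log2 ratio was -0.18 to 0.59 in S1, -1.41 to -0.32 in S2, -2.03 to -1.18 in S3, -1.59 to -0.61 in S4 and -1.08 to -0.47 in S5, lowest in S3. Their summed Cy5 signal was 127171 to 166867 in S1 and 44330 to 70010 in S3, with all 10 above background on at least 1 array of each. None of 7 tested heart muscle, 8 blood or 4 smooth muscle genes was called in the slope. Of the 9 enterocyte markers, 2 were called as lower in S5 than in S1 to S4 and none as higher. For all named genes the numbers were 321 and 268 of 8761. The pancreas genes, like cdx4, had rising slopes, and the rise of cdx1a was called only under some of the processings. Their largest median step was from S3 to S4 (1.00, against 0.22 from S2 to S3). That of the cdx1a mean was also from S3 to S4 (0.34, against -0.13 from S2 to S3). The largest step of the cdx4 mean was from S2 to S3 (1.25, against 0.26 from S3 to S4). In the 4 steps from S1 on, the median liver gene changed by -1.19, -0.86, 0.99 and 0.11. Gata4 changed by 0.01, -0.54, -0.40 and 0.18, so that both went down from S2 to S3. The part of any of these tissues in the results was not tested.

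S6 and S7 were set against S1-S5 with the limits that their arrays impose. Between these sets 25.2% of all tested probes were called as lower in S6 and 25.6% in S7, and the segment cannot be told apart from the array set with its own spot size and reference signal. Gata6 had log2 ratios of -0.36, 0.45 and -0.31 in S6 and -0.38, -0.47 and -0.25 in S7, all below every S1-S5 array. S6 minus S1-S5 was -2.62 (adjusted p = 6.8e-11), and S7 was called as lower too (adjusted p = 1.05e-11). Gata5 had 0.13, 0.58 and 0.12 in S6 and 0.25, 0.37 and -1.48 in S7, again below every S1-S5 array, with a difference of -2.55 for S6 (adjusted p = 4.75e-06) and a call as lower for S7 (adjusted p = 1.95e-07). Cy5 of both genes was above background on 1 of 3 arrays in S6 and on none of 3 in S7. In S6 this was replicate 2, on which 89.9% of all spots were above Cy5 background, against 38.0% on replicate 3 and 30.7% on replicate 5. With the S7 arrays set no lower than the floor described for cdx4, the Cy5 signal was 4.90-fold lower than in S1-S5 for gata6. For gata5 it was 3.70-fold lower, and both folds are estimates.

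The caudal genes gave mixed results in these segments. Cdx4 had -1.42, 0.16 and -0.45 in S6 and 0.68, 0.34 and -0.14 in S7. Against S1-S5 the S6 value was -1.70 (adjusted p = 9.97e-05). Its Cy5 was above background on 1 of 3 arrays of S6, again replicate 2, and on 5 of 24 of S1-S5, which limits the size of this difference. The S6 mean was -0.57 ± 0.79 (SD, n = 3), beside -0.29 ± 0.21 in S1 (n = 5). None of its S7 arrays was above Cy5 background, and with the floor its Cy5 signal was not lower than in S1-S5. The fitted call in S7 (adjusted p = 0.0338, or 0.0795 without S7 replicate 4 and 0.211 without replicate 5) therefore shows no lower level. Cdx1a had -0.02, 1.53 and -0.09 in S6 and 0.19, 0.36 and -0.68 in S7. It was called in S7 (-0.90, adjusted p = 0.00357; -0.58 and 0.101 without S7 replicate 5) and not in S6 (-0.38, adjusted p = 0.205; -0.91 and 0.00326 without S6 replicate 3), and its Cy5 signal alone was higher in S6 than in S1-S5 (1.03, adjusted p = 0.0143) and gave 0.53 in S7 (adjusted p = 0.2). Gata4 differed in neither call, at -0.20, -0.70 and 0.34 in S6 (0.21, adjusted p = 0.461) and -0.77, -0.97 and 0.07 in S7 (adjusted p = 0.589), where no array was above Cy5 background. By the F test over all 7 segments at a Bonferroni corrected p under 0.1, which called 14.2% of probes, gata6, cdx4 and gata5 differed and cdx1a and gata4 were not called.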

How the data were processed

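Two-colour arrays of 30 RNA pools were analysed. The authors deposited intensity, the scanner brightness of spot and local background in both dyes, without normalization. The other deposited columns used are the pixel numbers of spots and the log2 values that the authors made as the ratio of the dyes times a constant per array, although their methods name LOWESS. In limma 3.58.1 (R 4.3.3) the background was subtracted by normexp with an offset of 50 and ratios were normalized by loess within arrays, with 245 spots of sequences printed at least 10 times left out. A probe was tested when either dye was above background on at least 3 arrays of a segment, 19479 probes in S1-S5 and 21395 in all. Of the spots 11724 carry a symbol, of which 8022 were updated through a synonym. On simulated data for the slope over 19479 probes, 99% of slopes of 0.5 and 75% of slopes of 0.25 were recovered. The number of arrays limits the precision. The p-values measure the spread between arrays, in which differences between pools and those of labelling, hybridization and scan cannot be told apart. Genes named besides the members are the 5 most alike for each member and up to 4 per list with the largest S5 difference among those called, and others are said to be named after their values were seen. For a gene with several probes the brightest was used. The members and lists were chosen with earlier results of these data known. Alternatives are given in the closing section.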

Additional observations from a re-analysis of the deposited data

Results flagged for a closer look

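Of 25 groups of 4 or 5 arrays, 1 held an array apart from the rest, about as many as chance gives at 1 in 20. In S2 the log2 ratio of cdx1a was 1.05 on replicate 2 and 0.72 to 0.80 on the other 4 arrays, so that its gap to the nearest array was 0.759 of the range, above the limit of 0.71 for 5 arrays.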

How the results depend on the processing

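The rise of cdx4 along S1-S5 was called under all 11 other processings, and the fall of gata4 under 9. The direction of the gata5 and gata6 slopes, both near 0, turned with the processing. The cause of each change was not tested. With the Cy5 signal alone, cdx1a turned to -0.16 for S5 against S1 to S4, -0.38 for S5 minus S4, 1.03 for S6 and 0.53 for S7, and its slope was 0.037 (0.86). The gata4 steps turned to -0.89 (S2 minus S1) and 0.10 (S3 minus S2), its region difference was -0.85 (adjusted p = 0.133), the gata6 slope was -0.020, and gata4 minus gata5 was called in slope at -0.41 (0.000347). Probes called numbered 6475 in the F test over S1-S7, 371 in S2 minus S1, 143 in S3 and S4 against S1 and S2, and 388 in the slope. With the authors' values the slopes were 0.14 for cdx1a (0.0683), -0.40 for gata4 (0.167) and -0.035 for gata6. The S7 difference of cdx4 was -1.16 (0.0843), and gata4 gave F = 3.35 (0.192), S2 minus S1 of -0.19, a region difference of -1.40 (0.127) and a slope relative to gata6 of -0.37 (0.0861). They called 3 probes in S4 minus S3 and 162 in S5 minus S4.

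With median centring the slopes were 0.16 for cdx1a (0.119), -0.23 for gata4 (0.0756) and 0.015 for gata5, gata4 gave 0.12 in S7 and -0.25 relative to gata6 (0.0784), and probes called were 56 in S2 minus S1, 639 in S3 minus S2, 661 in S5 against S1 to S4, 182 in S5 minus S4 and 520 in the slope. Of these slopes 341 rose and 179 fell, against 461 and 457. With scaling between arrays the slopes were 0.12 for cdx1a (0.29), -0.11 for gata6 and -0.12 for gata4 relative to gata6 (0.43), and 292, 34, 2 and 172 probes were called in the 4 steps from S1 on. Without background correction gata4 gave 0.20 in S7 and -0.22 relative to gata6 (0.136), gata6 gave -0.0043 in S4 minus S3 and -0.033 in slope, and 172 (S3 minus S2) and 9 (S4 minus S3) probes were called. An offset of 16 gave a gata5 slope of 0.023, and no filter gave 9 probes in S4 minus S3. The fit on all 30 arrays gave a cdx1a slope of 0.15 (0.233) and called 634 probes in the F test, 206 between regions and 512 in S5. Spot size was chosen as an alternative after seeing the data. As a block it gave slopes of 0.16 for cdx1a (0.116) and -0.030 for gata6 and called 524 slopes. On the larger spots only, slopes were 0.17 for cdx1a (0.0922), 0.018 for gata5, -0.0074 for gata6, -0.26 for gata4 relative to gata6 (0.15) and -0.025 for gata6 relative to gata5. The region differences were 1.71 for cdx4 (0.0767) and -0.89 for gata4 (0.105), gata5 gave 0.16 in S5, F was 5.85 for gata4 (0.0786) and 7.34 for gata6 (0.0419), and 789 (F), 144 (regions) and 438 (slope) probes were called.

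By the study's methods a replicate pools a segment of 10 fish, and neither they nor the labels say whether equal numbers in different segments mark the same fish. The arrays did not settle whether equal numbers are paired. Deviations of same-numbered arrays correlated at -0.63 to 0.53, with a mean of 0.0555 over 46 pairs, against -0.0146 for arrays of other numbers. Of the 24 arrays, 9 correlated best with their own number. With the replicate block the gata5 slope was 0.015 and 22 probes were called in S4 minus S3, and no other call of the members changed.

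Leaving out each array in turn, cdx1a ranged from 0.31 to 0.53 in S5, -0.91 to -0.10 in S6, -1.10 to -0.58 in S7 and 0.13 to 0.17 in slope (highest adjusted p 0.115). Cdx4 ranged from -0.028 to 0.60 in S4 minus S3 and -1.03 to -0.62 in S7. Gata4 ranged from -0.077 to 0.10 in S2 minus S1, -0.053 to 0.47 in S6 and -0.47 to 0.049 in S7. Gata5 ranged from -0.44 to 0.054 in S4 minus S3, -0.40 to 0.072 in S5 and -0.046 to 0.049 in slope. Gata6 ranged from 2.43 to 5.91 in F, -0.062 to 0.17 in S4 minus S3 and -0.011 to 0.035 in slope. Slope differences ranged from -0.34 to -0.20 (gata4 and gata5), -0.32 to -0.23 (gata4 and gata6) and -0.014 to 0.040 (gata6 and gata5). Probes called ranged from 871 to 1806 in F, 20 to 468 in S2 minus S1, 258 to 587 between regions, 36 to 549 in S3 minus S2, 3 to 11 in S4 minus S3, 584 to 1361 in S5 and 168 to 354 in S5 minus S4. Without S5 replicate 2, 3 or 5, cdx4 no longer passed the filter and has no value. In the other 21 fits of S1-S5 its slope was 0.69 to 0.76. The S7 values of cdx4 and gata4, like those of cdx4 in S1 and S2, come from arrays not above Cy5 background and are no folds. In S6, cdx4 was above Cy5 background on 1 of 3 arrays, replicate 2, where most spots of the array were. Signals of cdx4 in both dyes and gata5 in Cy3 near background limit the size of their ratios.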
